A study of Bos taurus with 16 samples.

Results

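The cytosolic ribosomal proteins were followed through a bovine (Bos taurus) kidney RNA series made to check linear RNA amplification. Their features were chosen by gene symbol in the array's probe-to-gene table: names of the form RPS or RPL with a number, plus RPSA and the RPLP stalk proteins. The rule found 114 of 16896 spots, which are 57 of 8448 features because each feature was printed as 2 spots, and they stand for 47 genes. The small subunit had 20 features of 17 genes and the large subunit 37 features of 30 genes. All 57 symbols were the same in the current RefSeq gene table. RPL7L1, a paralog of RPL7 that takes part in making the large subunit, came in by its name, and features listed with several symbols, such as RPS26 beside another locus, stayed out.

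Every array was a custom 2-colour cDNA microarray that held kidney RNA in one dye and a common reference standard RNA in the other. The kidney groups were round 0, which is unamplified total RNA, and rounds 1, 2 and 3 of linear amplification, each with replicates 1 and K, so that 8 kidney RNAs were measured. Each RNA was hybridised on 2 arrays with the dyes swapped, which gives 16 arrays. The reference had passed through 2 rounds of amplification on every array, those of round 0 included, and its tissue makeup is not given in the sources used here. Nor do the labels say whether replicates 1 and K came from separate animals or cultures. The p-values below therefore cover only how these RNAs spread, which may be technical.

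A ribosome is built of a small subunit, which holds the mRNA and reads its codons, and a large subunit, which joins the amino acids and holds the exit tunnel. The cytosolic ribosomal proteins are needed in equal numbers, 1 of most in each ribosome, and their mRNAs are short and among the most abundant of most tissues. Those mRNAs start with a terminal oligopyrimidine (TOP) tract, through which the mTOR pathway sets their translation together with that of elongation factors.

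The value used is the log2 ratio of kidney over reference after each array was set to a median of 0 over the features listed with a gene, so a value below 0 is a ratio below that of the middle feature of the same array. A ratio is not an mRNA level, and an mRNA that is high in kidney has a ratio below 0 where the reference holds still more of it. The direction rests on Cy5 over Cy3 being the deposited ratio, which is likely and not stated. In it 16 features of 10 kidney marker genes had median log2 ratios of 2.70 to 2.96 in the 4 rounds. Not all lay above 0: at rounds 0 to 3, 3, 1, 3 and 1 of the 16 were below it. Because this list sets the direction, it shows nothing further. Each array had a ratio for 83.8% to 95.0% of its spots, and duplicate spots correlated at 0.496 to 0.822 over features. The ribosomal protein spots had a ratio in 98.1% of cells, against 92.9% over all listed spots. Their duplicate spots differed by a median of 0.146 log2 units, against 0.27. Every round 0 value was written with 3 decimals, against 84.3% to 88.4% of values on the amplified arrays, so a difference in file processing and the lack of amplification cannot be told apart in a comparison with round 0.

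Of the 57 features, 56 had a ratio in all 8 RNAs and were tested, among 5537 tested features. The ribosomal proteins lay low in the kidney against the reference in every round. Adjusted p was under 0.05 with a ratio below 0 for 43 of 56 features at round 0 (76.8%, background over all tested features 19.1%). At round 1 the count was 49 of 56 (87.5%, background 20.9%). At round 2 it was 44 (78.6%, background 18.6%), and at round 3 it was 37 (66.1%, background 18.4%). On the other side of 0 the counts were 0, 0, 1 and 1 at rounds 0 to 3, where 19.6%, 16.9%, 16.6% and 16.7% of all tested features were called, and the exception at rounds 2 and 3 was RPS10. With 1 RNA left in a round the counts fell: to 14 and 17 at round 0 without replicates 1 and K, to 31 at round 1 without K, to 25 and 19 at round 2, and to 19 at round 3 without K. In bulk RNA, fewer cells rich in these mRNAs and less of each mRNA per cell cannot be told apart. Only at round 2 had kidney and reference passed through the same number of amplification rounds. At rounds 0, 1 and 3 unequal amplification and a difference between the 2 RNA sources cannot be told apart.

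The median over the 56 features was -0.90 at round 0, -1.26 at round 1, -1.07 at round 2 and -0.99 at round 3, where the median of all tested features was between -0.02 and 0.04. As linear ratios of kidney over reference these medians were 0.537, 0.417, 0.477 and 0.503, and with the unstated direction turned they were 1.86, 2.40, 2.10 and 1.99. Turning it would change the sign of every ratio, so that the counts below and above the reference, the order of the features and the rises and falls between rounds would swap sides. By RNA, the median was -0.89 in both round 0 RNAs, -0.999 in replicate 1 and -1.49 in replicate K of round 1, -0.92 and -1.09 at round 2, and -0.89 and -1.23 at round 3. The RNA of round 1, replicate K was thus the lowest and the other 7 lay between -1.23 and -0.89. Below 0 in all 8 RNAs were 48 of 56 features (85.7%, background 18.6%), and above 0 in all 8 was none (background 15.4%). Called below the reference in all 4 rounds were 27 of 56 (48.2%, background 7.89%), 7 of the small (36.8%) and 20 of the large subunit (54.1%).

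These counts are relative to the middle feature of each array. Without that centring the deposited ratios had a median over all tested features of 0.65, -0.30, 0.59 and 0.32 at rounds 0 to 3, and the ribosomal protein median was -0.21, -1.60, -0.49 and -0.68. It rose above 0 in the round 0 RNA of replicate K, at 0.10. The uncentred test called 2, 48, 10 and 21 of 56 features below the reference at rounds 0 to 3, with 3.47%, 20.1%, 4.32% and 6.09% of all features called. The distance of the ribosomal proteins from the middle feature was therefore measured in every round, while an uncentred ratio below 1 was called for most of them only at round 1. The uncentred ratio is not an absolute one. Its median over listed features ran from -1.33 to 2.31 across arrays. On the swapped arrays of round 0 replicate K it was 2.31 and -0.36. How far the uncentred counts follow such array offsets was not tested.

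**Figure D1:**
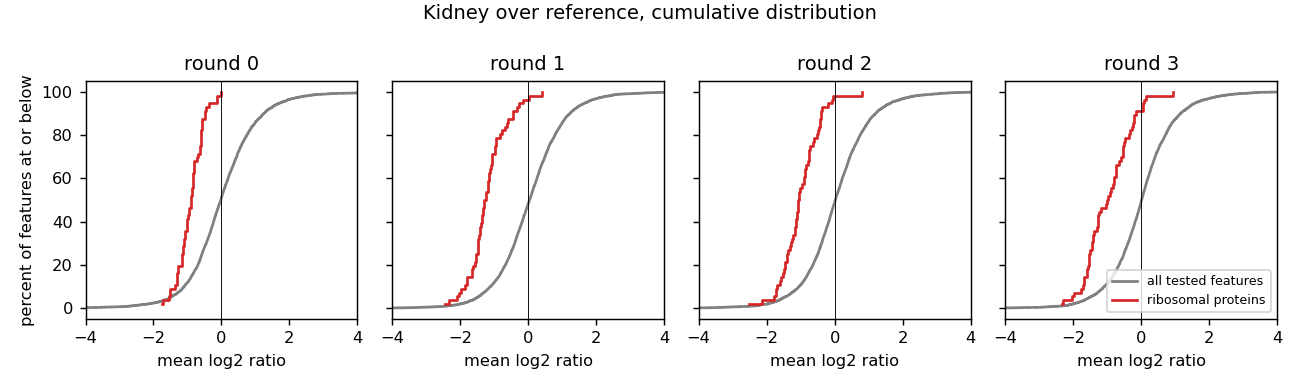
Cumulative share (percent) of features by mean log2 ratio of kidney over reference, in 1 panel per round, for 56 ribosomal protein features (red) and all 5537 tested features (grey). The red curve lies left of the grey curve over most of its height, with medians of -0.90, -1.26, -1.07 and -0.99, and it widens from round 0 to round 3.

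The dye orientation moved the size of the shift and not its side. On the 8 arrays with kidney in Cy3 the median over the ribosomal proteins ran from -2.37 to -0.985, and on the 8 with kidney in Cy5 from -0.823 to -0.339, so the ranges did not overlap and all 16 medians were below 0. The lowest value, -2.37, came from the Cy3 array of round 1, replicate K, whose Cy5 partner gave -0.630. With the Cy5 arrays alone the test called 27, 27, 20 and 23 of the features below the reference at rounds 0 to 3 (background 15.1%, 14.1%, 13.3% and 15.9%). Over all 57 ribosomal protein features, the values of the swapped arrays of an RNA correlated at -0.203 for round 0 replicate 1 and 0.107 for round 1 replicate K. They correlated at 0.591 to 0.884 for the other 6 RNAs. Single features lay far apart in the 2 low pairs. At round 0 replicate 1, RPL5 read -4.30 with kidney in Cy3 and 2.06 with kidney in Cy5. At round 1 replicate K, the untested RPS15A feature a read 3.84 and -2.18. The correlations without these features were not taken. The part of dye in single values was not tested.

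**Figure D2:**
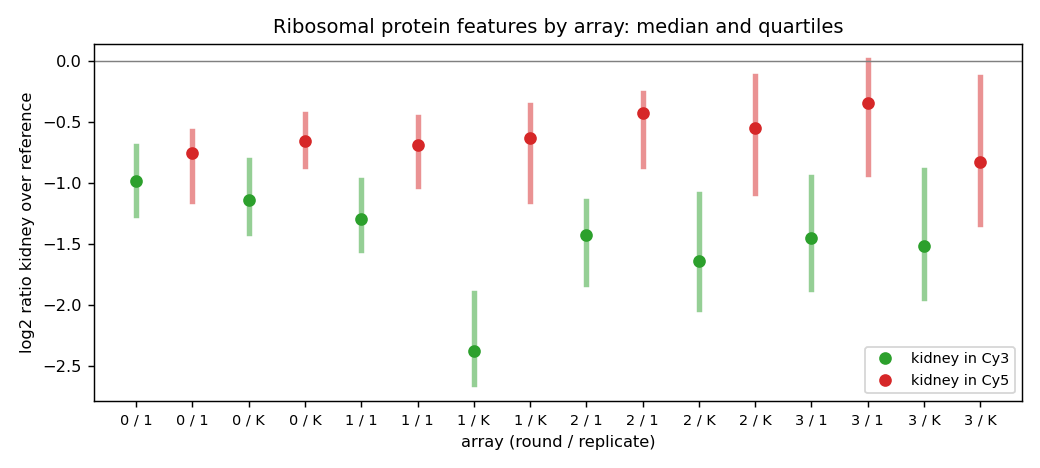
Median (point) and quartiles (bar) of the log2 ratio of kidney over reference over the ribosomal protein features on each of 16 arrays, with kidney in Cy3 (green) or Cy5 (red). Every point is below 0, and the Cy3 arrays, from -2.37 to -0.985, lie below all Cy5 arrays.

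The lowest ratios belonged to small subunit proteins with RPL27 and RPL30 of the large subunit among them. RPS20, a protein of the small subunit's head, had the lowest mean of 4 rounds, -2.26. Its log2 ratios in replicates 1 and K were -1.70 and -1.83 at round 0, -1.82 and -3.05 at round 1, -2.17 and -2.87 at round 2, and -2.04 and -2.62 at round 3. Replicate K was the lower of the pair in each round, and RPS20 was called below the reference in all 4 rounds, with a mean of -1.76 ± 0.09 (SD, n = 2) and adjusted p = 0.0078 at round 0. RPS21 read -1.53 in both round 0 RNAs and between -2.43 and -1.81 in the 6 amplified RNAs, which all lay lower. RPS18, which sits in the head of the small subunit, had round means within -1.87 and -1.61, the narrowest range of these 6 genes, with -1.75 and -1.71 at round 0, -1.53 and -2.20 at round 1, -1.60 and -1.61 at round 2 and -1.66 and -1.79 at round 3. RPS12 read -1.23 and -1.31 at round 0, -1.76 and -2.33 at round 1, -1.39 and -1.64 at round 2 and -1.32 and -1.74 at round 3. Its round 0 values rest on weak ground. In replicate 1 the swapped arrays read -2.60 with kidney in Cy3 and 0.14 with kidney in Cy5. In replicate K only the array with kidney in Cy3 had a ratio. RPS21, RPS18 and RPS12 were also called below the reference in all 4 rounds, with adjusted p of at most 0.0038.

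RPL27 had 2 features, and both were called below the reference in all 4 rounds. Feature a read -1.52 and -1.50 at round 0, -2.01 and -2.67 at round 1, -1.50 and -1.94 at round 2, and -1.56 and -1.63 at round 3. Feature b read -1.16 and -1.08 at round 0 and between -1.72 and -1.32 in the amplified RNAs. RPL30, an RNA-binding protein of the large subunit, is described below with the features that changed between rounds.

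At the other end, 6 genes had features nearest to or above the middle of the array. RPS10 was the highest, with a mean of 4 rounds of 0.27, and it changed most between rounds (below). RPL15, a protein buried in the RNA of the large subunit, had feature a at 0.05 and -0.09 at round 0, -0.67 and -0.21 at round 1, -0.46 and 0.04 at round 2 and -0.07 and 0.16 at round 3. That feature was called in no round, with adjusted p between 0.12 and 0.95, whereas RPL15 feature b was called below the reference at rounds 0 and 1 (-0.60 ± 0.06 and -0.84 ± 0.20, SD, n = 2, adjusted p = 0.038 and 0.012). RPL18 was called below the reference at round 0 only, at -0.69 and -0.53 (adjusted p = 0.025), and stayed within -0.33 and 0.10 in the amplified RNAs. RPL32 was called below at rounds 0 and 1, with round means of -0.56 and -0.61, and was at -0.36 and -0.14 in rounds 2 and 3. The biogenesis paralog RPL7L1 was called below at round 1 only, where it read -0.995 and -1.35 beside -0.07 and -0.19 at round 0 and -0.12 and 0.22 at round 3. RPL10, which joins the large subunit late in its assembly, is taken up with the rounds.

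**Figure D3:**
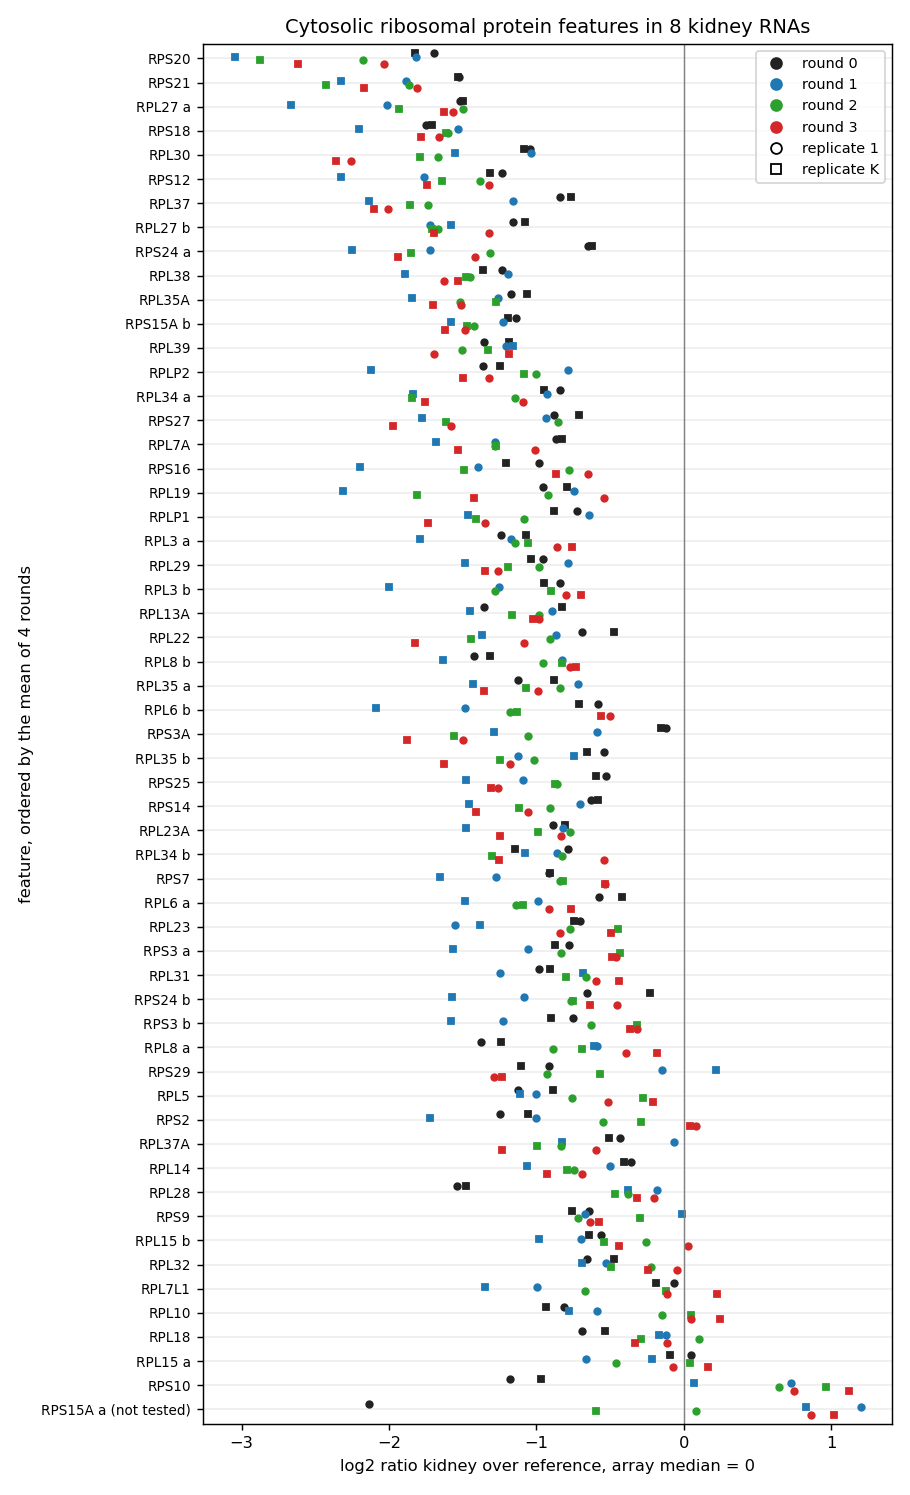
Log2 ratio of kidney over reference of each ribosomal protein feature in each of 8 kidney RNAs (colour: round; circle: replicate 1; square: replicate K), ordered by the mean of 4 rounds; letters a and b mark separate features of a gene. Nearly all points lie left of 0, RPS20 is lowest and RPS10 is the tested feature with most points right of 0.

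The proteins of both subunits lay below the middle of the arrays. Called below the reference at rounds 0 to 3 were 14, 16, 15 and 12 of 19 small subunit features (73.7%, 84.2%, 78.9% and 63.2%). Of 37 large subunit features they were 29, 33, 29 and 25 (78.4%, 89.2%, 78.4% and 67.6%). The background over all tested features was 19.1%, 20.9%, 18.6% and 18.4%. The median of the small subunit features was -0.91 and -0.91 in the round 0 RNAs, -1.09 and -1.58 at round 1, -0.86 and -1.12 at round 2 and -1.26 and -1.31 at round 3. The median of the large subunit features was -0.86 and -0.88, then -0.89 and -1.45, then -0.95 and -1.08, then -0.84 and -1.18. The large subunit was the higher in 7 of 8 RNAs, by differences between -0.10 and 0.42. By round the large minus small difference was 0.04 ± 0.02, 0.17 ± 0.05, -0.03 ± 0.09 and 0.27 ± 0.21 (SD, n = 2). No test was made, because proteins of a subunit are not replicates. The small subunit held both the lowest feature (RPS20) and the highest tested one (RPS10), and the SD over its round means was 0.424 at round 0 and 0.807 at round 3.

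**Figure D4:**
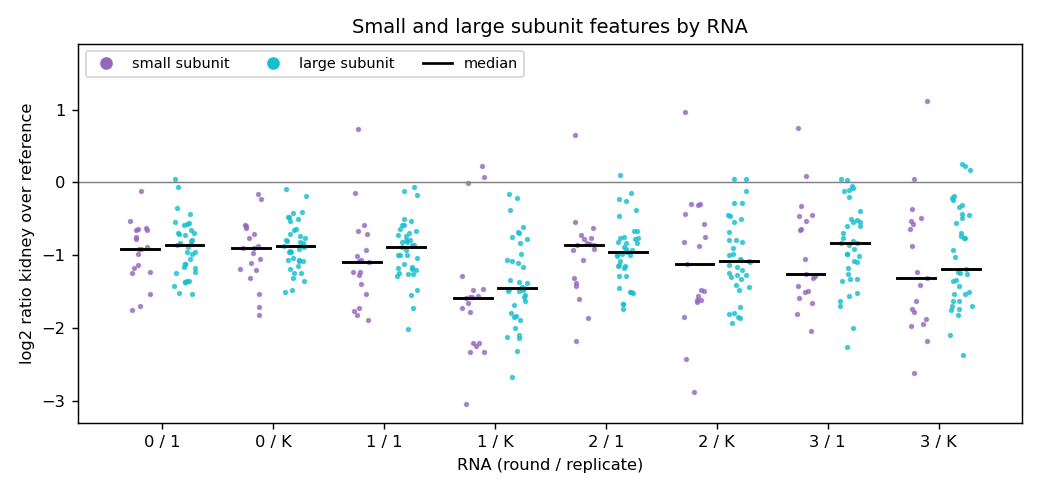
Log2 ratio of kidney over reference of 19 small subunit (purple) and 37 large subunit (cyan) features in each of 8 RNAs, named by round and replicate, with the median of each as a black bar. The medians lie between -1.58 and -0.84, and the large subunit bar is the higher in 7 of 8 RNAs.

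Separate cDNA features of the same gene show how far a value belongs to the gene. Of the ribosomal protein genes, 9 had 2 tested features, and their values in an RNA differed by a median of 0.249 log2 units, with gene medians from 0.119 for RPS3 to 0.656 for RPS24. Over all 756 genes with 2 tested features the median was 0.578. RPS3, which lines the mRNA entry of the small subunit, read -0.78 and -0.88 at round 0, -1.06 and -1.56 at round 1, -0.83 and -0.43 at round 2 and -0.46 and -0.49 at round 3 on feature a. Feature b gave -0.75, -0.90, -1.22, -1.58, -0.63, -0.32, -0.32 and -0.37 in the same order, so both features were lowest at round 1. The RPS24 features differed most among the tested pairs, with feature a lower in 7 of 8 RNAs. RPS15A stood apart: its feature a lacked a ratio in 1 round 0 RNA, was not tested, and read -2.13 at round 0 and between -0.60 and 1.20 in the amplified RNAs, while feature b stayed between -1.62 and -1.14 in all 8. Only feature b behaved like most other ribosomal protein features, and which of them measures RPS15A mRNA cannot be said from these values.

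For 4 gene pairs whose names share a stem both members were measured. RPL23 and RPL23A, the latter a protein at the exit tunnel, were each called below the reference in all 4 rounds, at round means of -0.72, -1.47, -0.61 and -0.67 for RPL23 and -0.85, -1.15, -0.88 and -1.04 for RPL23A. RPL35, also at the tunnel exit, and RPL35A were likewise called in all 4 rounds, both RPL35 features included, and the round means of RPL35A lay between -1.61 and -1.12. RPL37, a zinc-finger protein, was called in all 4 rounds with means of -0.80, -1.65, -1.79 and -2.05, whereas RPL37A, with -0.47, -0.45, -0.91 and -0.91, was called at rounds 2 and 3 only. The difference between RPL37 and RPL37A was not tested. RPS3 and RPS3A are treated above and below.

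The course over the rounds was not shared by the whole set. Against round 0, adjusted p was under 0.05 for 3 features that rose and 2 that fell at round 1 (5.36% and 3.57% of 56, background 5.42% and 7.87%). At round 2 there were 2 that rose and 0 that fell (background 4.41% and 6.79%), where limma gave 6 lower features at an unadjusted p under 0.05 (background 17.2%). At round 3 there were 5 that rose and 2 that fell (8.93% and 3.57%, background 4.61% and 7.1%). The shares were near or below the background except for the rises at round 3. A fit of all 16 arrays with a dye term called 3 higher and 8 lower at round 1 (background 8.94% and 14.4%), 3 and 4 at round 2 (background 9.12% and 13.4%) and 5 and 7 at round 3 (background 10.3% and 13.6%), and each of these 6 shares of the 56 features was near or below its background. That fit estimated a correlation of -0.08 between the 2 arrays of an RNA, so they counted nearly as separate replicates. Its residual degrees of freedom were 11, against 4 in the main fit, while each round still held 2 RNAs. Each comparison shares the same round 0 RNAs, and all 4 rounds share the reference. A moderated F test among the 4 rounds called RPS10 (adjusted p = 0.034) and RPL28 (adjusted p = 0.0343), 2 of 56 features where the background was 7.66%.

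The median change from round 0 was -0.37, -0.18 and -0.11 at rounds 1, 2 and 3, beside medians of -0.03, 0.01 and 0.00 over all tested features. At round 1, 46 of 56 features had a lower mean than at round 0, as had 2839 of all 5537 tested features. In 28 of 56 both round 1 RNAs lay below both round 0 RNAs (50.0%, background 34.3%), against 6 where both lay above (10.7%, background 29.8%). Replicate K gave the lower round 1 values: replicate 1 was the higher in 48 of 56 features, by a median of 0.52. Over all tested features that median was 0.08. At round 0 replicate 1 was the higher in 27 of 56. The lower round 1 medians were seen on Cy3-kidney arrays, with -1.29 and -2.37 in replicates 1 and K, beside -0.985 and -1.14 at round 0. On Cy5-kidney arrays they were -0.69 and -0.63 at round 1, beside -0.75 and -0.65 at round 0. With the arrays scaled to the same spread, the median change at round 1 was -0.18. The part of dye in this change was not tested. The spread among the features grew with amplification, from an SD over the 56 round means of 0.375 at round 0 to 0.559, 0.558 and 0.676 at rounds 1 to 3, while the SD over all tested features went from 1.05 to 0.958. Without centring, 32 of the 56 features were called lower at round 1 than at round 0, where 33.1% of all features were. At rounds 2 and 3 that fit called 0 lower, with 0.777% and 1.97% of all features called.

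RPS10, a small subunit protein near the mRNA entry that is ubiquitinated when ribosomes stall, rose in all 3 comparisons with round 0. It read -1.18 and -0.97 at round 0, 0.73 and 0.07 at round 1, 0.65 and 0.97 at round 2, and 0.75 and 1.12 at round 3. The 6 amplified RNAs all lay above 0 and above both round 0 RNAs. The change from round 0 was 1.47, 1.88 and 2.01 log2 units (SE 0.30, adjusted p = 0.031, 0.019 and 0.016), or 2.78-, 3.68- and 4.01-fold. Its round means went from -1.07 ± 0.15, called below the reference, to 0.81 ± 0.23 and 0.93 ± 0.26 (SD, n = 2), called above it at rounds 2 and 3. On single arrays it was above 0 on 11 of the 12 amplified arrays and below 0 on all 4 of round 0. Without centring the changes were 0.46, 1.78 and 1.64, with adjusted p between 0.07 and 0.40.

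RPL28, a large subunit protein, also rose in all 3. It read -1.54 and -1.48 at round 0, -0.18 and -0.38 at round 1, -0.38 and -0.47 at round 2 and -0.20 and -0.32 at round 3. Its amplified RNAs were all higher than its round 0 RNAs and close to each other. The change was 1.23, 1.09 and 1.25 log2 units (SE 0.20, adjusted p = 0.017, 0.024 and 0.018). It was called below the reference at round 0 (adjusted p = 0.00059) and in no amplified round. Without centring the changes kept their sign, at 0.22, 0.98 and 0.88, with adjusted p of at least 0.25.

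**Figure D5:**
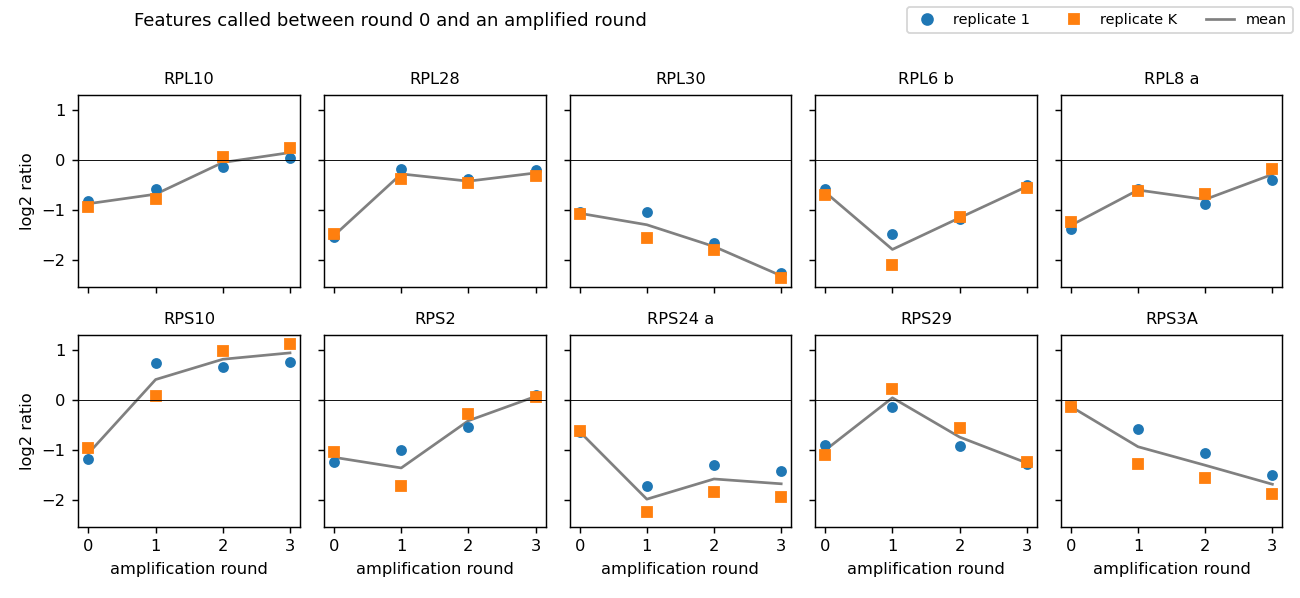
Log2 ratio of kidney over reference in amplification rounds 0 to 3 for the 10 ribosomal protein features called between round 0 and an amplified round, with replicate 1 (blue circles), replicate K (orange squares) and their mean (grey line). RPS10, RPL28, RPS2, RPL10 and RPL8 a end higher than they began, and RPS3A, RPL30 and RPS24 a end lower. RPS29 is high at round 1 only, and RPL6 b is lowest at round 1.

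A further 3 features were called higher at round 3 and at neither earlier round. RPS2, a small subunit protein of the mRNA channel, read -1.25 and -1.05 at round 0, -1.01 and -1.72 at round 1, -0.55 and -0.29 at round 2 and 0.09 and 0.04 at round 3, a change of 1.22 ± 0.29 (SE, adjusted p = 0.044). RPL10 read -0.81 and -0.94 at round 0, -0.59 and -0.78 at round 1, -0.15 and 0.05 at round 2 and 0.05 and 0.25 at round 3, and its change of 1.02 ± 0.21 had adjusted p = 0.032. In both genes the 2 round 3 RNAs lay above 0 and above every RNA of rounds 0 and 1. RPL8, part of the large subunit's catalytic centre, had feature a at -1.31 ± 0.09 at round 0 and -0.29 ± 0.15 at round 3 (SD, n = 2), and this change of 1.02 ± 0.20 (SE) had adjusted p = 0.031. RPL8 feature b changed by 0.62 in the same direction and was not called.

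RPS29, a small zinc-finger protein of the small subunit, was called higher at round 1 than at round 0, by 1.05 ± 0.24 (SE, adjusted p = 0.040). It read -0.91 and -1.10 at round 0, -0.14 and 0.22 at round 1, -0.93 and -0.57 at round 2 and -1.29 and -1.24 at round 3, so that only round 1 stood apart. Its swapped arrays disagreed there, with 0.42 and 1.47 where kidney was in Cy3 and -0.71 and -1.03 where it was in Cy5. With the Cy5 arrays alone the change was -0.16. They also lay apart at round 2, with -0.39 and 0.22 in Cy3 and -1.47 and -1.35 in Cy5. At round 3 the Cy3 and Cy5 arrays read -0.24 and -2.34 in replicate 1, and -1.64 and -0.83 in replicate K.

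The falls were in 4 features. RPS3A, a small subunit protein, went down at each round: -0.12 and -0.15 at round 0, -0.59 and -1.29 at round 1, -1.06 and -1.56 at round 2 and -1.50 and -1.88 at round 3. It was not called against the reference at round 0 (adjusted p = 0.67) and was called below it in every amplified round. The change at round 3 was -1.55 ± 0.32 (SE, adjusted p = 0.033), a ratio of 0.341. RPL30 read -1.05 and -1.08 at round 0, -1.04 and -1.55 at round 1, -1.67 and -1.79 at round 2 and -2.26 and -2.36 at round 3, the lowest value of all 56 features in replicate 1 of that round. The change at round 3 was -1.25 ± 0.24 (adjusted p = 0.028). The 2 round 3 RNAs of each gene lay below those of every other round, apart from RPS3A in replicate K of round 2, which read lower than replicate 1 of round 3.

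RPS24, 1 of the genes mutated in Diamond-Blackfan anaemia, had feature a at -0.65 and -0.62 at round 0 and -1.72 and -2.25 at round 1, a change of -1.35 ± 0.31 (SE, adjusted p = 0.041), and it stayed between -1.94 and -1.31 after that. RPS24 feature b changed by -0.89 at round 1 and was not called. RPL6 feature b fell at round 1 by 1.14 on the log2 scale (SE 0.25, adjusted p = 0.037), from -0.64 ± 0.09 to -1.79 ± 0.43 (SD, n = 2), and was back at -0.53 at round 3. RPL6 feature a changed by -0.74 at round 1 and was not called.

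Steps in 1 direction over all 4 rounds were found in 10 features. Those that fell at each step were RPL22, RPL35 feature b, RPS3A, the stalk protein RPLP1, RPL30, RPS15A feature b and RPL37, 7 of 56 (12.5%, beside 7.33% of all tested features). Those that rose at each step were RPS10, RPL10 and RPL8 feature b, 3 of 56 (5.36%, beside 10.2%). These are orders of means without a test. Between amplified rounds adjusted p was under 0.05 for 0 of 56 features in limma (background 0.0% for each direction, except 0.289% lower at round 3 than at round 1). The fit of all 16 arrays with a dye term called 9 of them between rounds 3 and 1, 8 higher and 1 lower (background 5.45% and 4.19%). It counts the swapped arrays of an RNA nearly as separate replicates, so its calls are not on the same footing as those of the main fit. At an unadjusted p under 0.05, 15 of 56 features were higher and 2 lower at round 3 than at round 1 (background 11.4% and 9.81%), 8 higher and 1 lower at round 2 than at round 1 (background 5.09% and 5.18%), and 2 higher and 1 lower at round 3 than at round 2 (background 2.06% and 5.18%).

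All 14 called changes from round 0 rested on 2 RNAs per round. Leaving out either round 0 RNA left 0 of the 14 past the threshold, with the sign of each kept. Leaving out the round 1 RNA of replicate K left 0 of the 5 changes at round 1, and leaving out that of replicate 1 left 1 of them, the fall of RPL6 feature b, with RPL37 called in addition. Leaving out either RNA of round 2 left 0 calls at round 2, and likewise for round 3 at round 3. Leaving out an RNA of a round not compared kept RPS10 and RPL28, 2 of the 5 changes at round 1, and both changes at round 2. At round 3 all 7 were kept without either round 1 RNA, and 3 of 7, those of RPS10, RPL28 and RPS3A, without either round 2 RNA. Without centring 2 of the 14 remained, the falls of RPS24 feature a and RPL6 feature b at round 1, and no sign turned.

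Other genes of the translation apparatus gave a scale for these values. Over all tested features, 19.1%, 20.9%, 18.6% and 18.4% were called below the reference at rounds 0 to 3, and 19.6%, 16.9%, 16.6% and 16.7% above. Against round 0, 5.42%, 4.41% and 4.61% rose and 7.87%, 6.79% and 7.1% fell at rounds 1 to 3. The list of other TOP mRNAs had 17 features of 13 genes, for elongation factors, initiation factors, poly(A)-binding protein, nascent-chain factors, vimentin and EEF1E1. Of these features, 10, 11, 9 and 8 (58.8%, 64.7%, 52.9% and 47.1%) were called below the reference at rounds 0 to 3, with 1, 0, 0 and 0 above. Their median was -0.62, -1.09, -0.64 and -0.53, and without centring it was 0.06, -1.42, -0.06 and -0.22. Against round 0, EIF4A2, an RNA helicase of initiation, fell at round 1 by 0.95 on the log2 scale (adjusted p = 0.040). EIF3E, a subunit of initiation factor 3, fell at round 2 by 1.55 (adjusted p = 0.0497). EEF1E1 rose at rounds 2 and 3 by 1.38 and 1.56 (adjusted p = 0.038 and 0.029). It came into the list by its symbol, and these data do not show it to be an elongation factor or a TOP mRNA. RACK1, a scaffold protein bound to the small subunit, had 3 features. At round 0, 2 of them read -0.71 and -0.64, and at round 1 -1.55 and -1.31, all called below the reference. The other read 0.80 and 0.86 and was called above it. At round 2 the low features read -0.74 and -0.68, both called below, and the other read 0.295 and was not called. At round 3 they read -0.33, -0.22 and 0.11, and none was called.

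Initiation and release factors outside the TOP list had 28 features, with medians of -0.41, -0.60, -0.52 and -0.25. Called below the reference were 9, 13, 9 and 9 (32.1%, 46.4%, 32.1% and 32.1%), and 1, 2, 2 and 2 above. Against round 0, 1, 0 and 1 rose (3.6%, 0.0% and 3.6%) and 3, 2 and 3 fell (10.7%, 7.1% and 10.7%) at rounds 1 to 3. EIF4H rose at round 1 by 2.29 (adjusted p = 0.014) on 1 of its 2 features and EIF1 at round 3 by 1.01 (adjusted p = 0.034), also on 1 of 2. EIF4G3 and EIF2S2, each on 1 of 2 features, fell at all 3 rounds, by 1.26, 1.26 and 1.28 and by 1.20, 1.21 and 1.13 on the log2 scale. EIF3A fell at round 3 by 1.28 (adjusted p = 0.029).

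Ribosome biogenesis factors had 34 features, with medians of -0.24, -0.50, -0.43 and -0.62. Called below the reference were 11, 14, 13 and 16 (32.4%, 41.2%, 38.2% and 47.1%), and 3, 4, 4 and 2 above. Against round 0, 1 rose at each of rounds 1, 2 and 3 (2.9%), and 6, 7 and 4 fell (17.6%, 20.6% and 11.8%, background 7.87%, 6.79% and 7.1%). NCL, the nucleolar protein nucleolin, fell at rounds 1 and 2 by 2.10 and 1.37 on the log2 scale (adjusted p = 0.013 and 0.035), and DDX21, a nucleolar helicase, by 1.43 and 1.22. NOP58, a core protein of box C/D particles, fell at all 3 rounds, by 1.37, 1.66 and 1.72. LTV1, a small subunit assembly factor, fell at rounds 2 and 3 by 1.56 and 1.77. The features that rose were TSR2 at round 1 by 1.28, PPAN at round 2 by 1.68 and NOP10 at round 3 by 1.13 (adjusted p = 0.041, 0.033 and 0.026). The other NOP10 feature changed by 0.43 at round 3 and was not called. The 11 features for S6 kinases and regulators of mTOR, TOP mRNAs and ribosome stress held 2 called changes, both in 1 of the 2 features of RPS6KB1, a kinase of ribosomal protein S6, which fell by 1.57 at round 2 and by 1.61 at round 3 (adjusted p = 0.019 and 0.018). The other RPS6KB1 feature changed by -1.92 and -2.22 and was not called (adjusted p = 0.13 and 0.087). The medians of the 11 features against the reference were 0.41, 0.12, -0.27 and -0.36. Called below were 1, 1, 2 and 2 of 11 (9.1%, 9.1%, 18.2% and 18.2%), and 2, 0, 0 and 1 above.

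Mitochondrial ribosomal proteins, which are encoded in the nucleus and build the ribosomes inside mitochondria, lay near the middle of the arrays. Of 44 features, 8, 15, 10 and 8 were called below the reference and 5, 2, 4 and 4 above, with medians of -0.17, -0.30, -0.09 and -0.08. Their share called below was 18.2%, 34.1%, 22.7% and 18.2%, where over all tested features it was 19.1%, 20.9%, 18.6% and 18.4%. In the cytosolic set it was 66.1% to 87.5%. The difference between the sets was not tested. Against round 0, 1 feature rose at each of rounds 1, 2 and 3 (2.3%), and 3, 2 and 3 fell (6.8%, 4.5% and 6.8%, background 7.87%, 6.79% and 7.1%). MRPS34 rose at all 3, by 1.50, 1.92 and 2.27. MRPL51 fell at all 3 on 1 feature, by 1.72, 1.09 and 0.77 on the log2 scale. The other MRPL51 feature changed by -0.74, -0.14 and -0.16 and was not called. MRPS22 at round 1, MRPL18 at round 2 and MRPS6 and MRPL32 at round 3 fell by 0.89, 1.18, 1.12 and 1.05. The other features of MRPS6 and MRPL32 changed by -0.56 and -0.88 at round 3 and were not called.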

How the data were processed

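The deposited values are log2 ratios per spot, written by the authors. In 1 deposited column (round 1, replicate 1, Cy3) the log2 ratios are followed by a closing run of 69 whole numbers, a score or other quantity whose meaning is not given in the sources used here, and these were dropped. No ribosomal protein spot was among them. How the arrays were scanned, background-corrected and normalized was not given in the sources used here. A code, 16.61, that marks an undefined ratio, and values beyond 10 either way were set to missing. Duplicate spots were averaged, ratios of arrays with kidney in Cy3 were turned, the median over the 5693 features listed with a gene was subtracted from each array, and the dye swap was averaged to 1 value per RNA. Where a feature lacked a ratio on either array of an RNA, the other array alone gave the value. limma 3.58.1 in R 4.3.3 (lmFit, eBayes) fitted a mean per round over the 8 RNAs for 5537 features with a ratio in all of them. P-values were Benjamini-Hochberg adjusted over all 5537 features per comparison, with a threshold of 0.05. The test against 0 leaves out the spread of the reference. The script was tested on simulated data.

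The members and the lists of related genes were chosen with earlier results of these data known. Named were all features of the 6 lowest and 6 highest ribosomal protein genes by mean over rounds, those called between rounds or above the reference, stem-sharing names with both measured, and up to 2 called changes each way per related list and comparison with round 0. Genes with 2 features are added as a comparison between features. Alternatives covered centring, scale, a dye term, features with a ratio on all 16 arrays, the rounds fitted, a replicate block and each RNA left out. After seeing the data, leaving out 1 array or dim spots and using arrays of 1 dye were added. Precision is limited by the number of arrays. No probe sequences were used here.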

Additional observations from a re-analysis of the deposited data

Results flagged for a closer look

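RPS10 lay below the reference in both RNAs of round 0 and above it in both RNAs of rounds 2 and 3, and the contrasts that test this difference gave 1.88 log2 units for round 2 against round 0 and 2.01 for round 3 against round 0 (limma, adjusted p = 0.019 and 0.016). Each round holds 2 arrays per dye orientation, too few to look for an array far from the others within an orientation.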

How the results depend on the processing

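Counts are of 56 features, or of 55 with only the Cy5-kidney arrays and among features with a ratio on all 16 arrays, with the values reported in the report first. Called below the reference at rounds 0, 1, 2 and 3 were 43, 49, 44 and 37. Without centring they were 2, 48, 10 and 21, and with only the Cy5-kidney arrays 27, 27, 20 and 23. Leaving out 1 RNA gave 14 to 47, 31 to 49, 19 to 44 and 19 to 41, the lowest values coming when the round itself kept 1 RNA, which is then assumed to vary like the other rounds (round 0 without replicate 1 gave 14 and without K 17). Called at round 1 against round 0 were 5, and 32 without centring, 11 with a dye term (8.94% of all tested features higher and 14.4% lower), 8 among features with a ratio on all 16 arrays, 0 with only those rounds fitted, 1 without the Cy3 array of round 1 replicate 1, 8 with only Cy3-kidney arrays, 2 with only Cy5-kidney arrays, and 0 to 2 without 1 RNA. At round 2 against round 0 there were 2, and 0 without centring, 6 with arrays scaled, 7 with a dye term, 4 among features with all 16 ratios, 1 with only those rounds fitted, 1 without that Cy3 array, 1 with only Cy3-kidney arrays and 0 to 3 without 1 RNA. At round 3 against round 0 there were 7, and 0 without centring, 12 with a dye term (10.3% of all tested features higher and 13.6% lower), 2 with only those rounds fitted, 2 without that Cy3 array, 2 with only Cy3-kidney arrays and 0 to 8 without 1 RNA. At round 3 against round 1 there were 0, and 9 with a dye term (background 5.45% higher and 4.19% lower). Among features with all 16 ratios there were 6. Over all features tested, Cy3-kidney arrays called 8.25% higher and 12.3% lower at round 1 against round 0 (3 and 5 of the 56). At round 2 they called 3.97% and 6.63%, with 2.78% and 5.19% at round 3. Cy5-kidney arrays called 2.16% and 2.14% at round 1, and the dye term 9.12% and 13.4% at round 2. Such shares were not taken for scaled arrays, all 16 ratios, fewer rounds or that Cy3 array left out. Between amplified rounds every fit with 1 RNA left out gave 0 to 0. The large minus small subunit difference of 0.04 at round 0 was 0.0757 with 1 value per gene, -0.0175 with Cy3-kidney and 0.0589 with Cy5-kidney arrays. At round 1 it was 0.17, then 0.24 per gene and 0.26 with Cy5-kidney arrays. At round 2 it was -0.03, then 0.10 per gene and 0.16 with Cy5-kidney arrays. Without 1 RNA the differences were 0.03 to 0.05, 0.13 to 0.20, -0.10 to 0.04 and 0.12 to 0.42. The cause of these moves was not tested. Of 252 alternative values of the 14 called changes, 129 stayed past the threshold, 122 kept the sign and missed it, and 1 turned: RPS29 at round 1 gave -0.16 with Cy5-kidney arrays. With the replicate block the counts were 46, 49, 43 and 37 below the reference and 5, 3 and 6 against round 0, and of the 14 called changes only the rise of RPS2 missed the threshold (adjusted p = 0.063). Deviations of RNAs of the same replicate correlated at -0.049 to 0.169 over 6 pairs of rounds, and 1 of 6, rounds 2 and 3, was over 0.1. The labels name Kidney 1 or Kidney K at every round, and a low correlation cannot show that the RNAs are unpaired. Whether they are paired across rounds is not known.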
